A study of Rattus norvegicus with 6 samples.

Results

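The genes described here encode scaffolds and signalling proteins of the postsynaptic density. The list holds 31 genes, matched by symbol. It covers the Dlg, Dlgap, Shank, Homer, Camk2, Iqsec and Lin7 families, 24 genes in all, and 7 further genes (Baiap2, Cnksr2, Begain, Kalrn, Sipa1l1, Tnik and Agap2). Of these, 30 were found among the 17366 transcripts of the deposited table and 29 were high enough to be tested; Camk2g was too low, and Iqsec1 was not analysed here.

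Polyadenylated RNA was sequenced from cultures of retinal ganglion cells (RGCs), whose axons form the optic nerve, from Sprague Dawley rats labelled P5. The cultures had grown for 10 days. Of the 6 libraries, 3 received Chrdl1 (chordin-like 1, a secreted antagonist of bone morphogenetic proteins) at 1 µg/ml for 12 h, and 3 received the vehicle, labelled 0.1% BSA and 4 mM HCl, for the same time. Each library shares a numeric title code with 1 library of the other treatment, which makes 3 pairs, named A, B and C by rising code. Values of 3 libraries are always listed in that order. Nothing in the labels says that libraries of a group are separate cultures, and p-values measure only the spread between these libraries, which may be technical.

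The postsynaptic density is the protein mesh beneath the membrane of an excitatory synapse. PSD-95 and its relatives (the Dlg family) hold receptors through their PDZ domains, Dlgap proteins link them to Shank, and Shank and Homer join the mesh to metabotropic receptors and the actin cytoskeleton. CaM kinase II (the Camk2 family) is activated by calcium entry and phosphorylates receptors and scaffolds, while guanine nucleotide exchange factors such as Kalrn and the Iqsec proteins control small GTPases at the same site.

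The label of the cells was checked against marker lists. The 11 RGC markers found summed to 3040 to 3500 FPKM in vehicle and 2853 to 3502 FPKM in Chrdl1 libraries (FPKM is a level scaled to transcript length and library size, so that genes can be compared). The largest were Sncg (819 to 1105 FPKM), Stmn2 (646 to 873) and Nefl (524 to 632). Stmn2 and the neurofilament genes are shared with other neurons, so the sum alone cannot tell RGCs from cortical neurons. Among the transcription factors listed, Pou4f2 ran from 24.6 to 38.0 FPKM, Isl1 from 36.1 to 48.3 and Pou4f3 from 9.56 to 11.3. Rbpms ran from 78.4 to 98.1 FPKM. The extraction protocol names visual cortex, whereas the source, cell type, growth and treatment labels name RGC cultures; the cortical gene Neurod6 was at most 0.382 FPKM, and the cortical list, at 59.2 and 63.1 FPKM in pair C and 8.56 to 14.0 elsewhere, was there mostly Slc17a7, which is also known from other glutamatergic neurons. The 3 pairs differed in genes of other retinal cells. In pair C the photoreceptor list summed to 49.8 (vehicle) and 50.3 (Chrdl1) FPKM, and to 2.59 to 6.03 in the other 4 libraries, most of the pair C sum being Crx, a transcription factor of photoreceptors and bipolar cells. The bipolar cell list summed to 47.2 and 52.1 FPKM in pair C and to 11.3 to 13.8 elsewhere. The microglia list summed to 21.0 and 11.4 FPKM in pair B and to 177 to 259 in the other 4 libraries, and the endothelial and mural list, which is mostly Acta2, to 15.9 and 10.4 in pair B and 80.9 to 133 elsewhere. Vehicle and Chrdl1 ranges overlapped for all 9 lists. In bulk RNA, fewer cells of a type and less RNA per cell cannot be told apart.

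**Figure D1:**
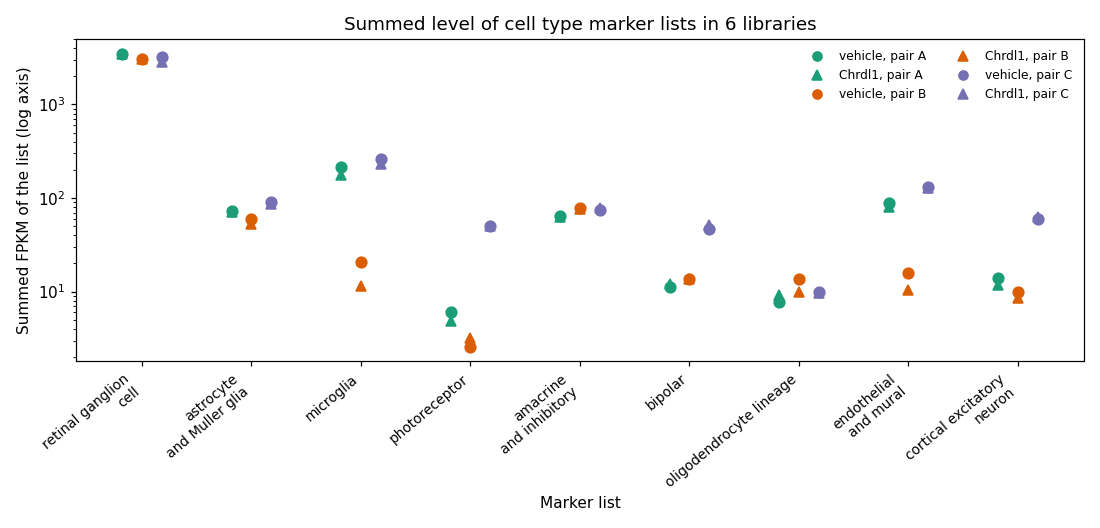
Summed FPKM (vertical log axis) of the 9 marker lists (horizontal axis) in each library; circles are vehicle and triangles Chrdl1 libraries, and colours mark pairs A, B and C. Photoreceptor and bipolar lists are high in both pair C libraries, and microglial and mural lists low in both pair B libraries.

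Promoter windows of 3 genes are shown: Camk2d and Dlg4 because they had the highest levels of all members, and Dlg1, a paralog of Dlg4, because it had the smallest p between pairs. They are RefSeq sequences of build GRCr8 (300 bases around the annotated gene start, most of them upstream), 5′ to 3′ on the gene's strand: Camk2d at chr2:217698301-217698600 (plus strand), Dlg4 at chr10:55239534-55239833 (plus strand) and Dlg1 at chr11:82607748-82608047 (minus strand). Capitals mark GGCGCC, a GC-rich element bound by BMP Smads, searched on both strands.
Camk2d: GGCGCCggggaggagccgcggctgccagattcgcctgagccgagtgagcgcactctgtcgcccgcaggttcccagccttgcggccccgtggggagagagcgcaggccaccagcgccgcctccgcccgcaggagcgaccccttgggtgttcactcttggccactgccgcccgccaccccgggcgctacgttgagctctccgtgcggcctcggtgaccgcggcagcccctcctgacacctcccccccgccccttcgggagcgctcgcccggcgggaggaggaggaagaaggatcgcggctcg
Dlg4: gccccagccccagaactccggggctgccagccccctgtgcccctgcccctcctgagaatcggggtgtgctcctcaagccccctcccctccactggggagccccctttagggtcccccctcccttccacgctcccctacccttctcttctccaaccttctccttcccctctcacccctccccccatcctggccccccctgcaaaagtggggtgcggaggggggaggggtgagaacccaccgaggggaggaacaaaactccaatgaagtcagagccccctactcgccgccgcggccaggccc
Dlg1: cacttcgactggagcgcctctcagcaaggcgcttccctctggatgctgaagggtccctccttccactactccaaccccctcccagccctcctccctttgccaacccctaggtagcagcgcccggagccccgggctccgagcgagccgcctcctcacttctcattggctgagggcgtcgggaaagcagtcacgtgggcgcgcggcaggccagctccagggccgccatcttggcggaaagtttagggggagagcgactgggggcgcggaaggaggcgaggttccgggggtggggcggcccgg

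Of the members, 24 had such a window. GGCGCC was in 5 of them (Baiap2, Camk2b, Camk2d, Camk2g and Dlgap4), 20.8%, against 22.3% of the 7959 windows of tested genes, so its frequency among the members was near that of the other genes. TGACGTCA, the cAMP response element, and TAATCC, the core bound by CRX and OTX factors, were in 0 of the 24 and in 3.47% and 5.03% of tested genes, and none of the motifs contains another. The median GC content was 61.3% in the members' windows and 61.7% in those of tested genes. A match is a description of letters and shows no binding.

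Levels are given first. The highest members were Camk2d, Dlg4 and Iqsec3, each near 100 FPKM or above in every library, and the lowest were Dlgap2, Shank2 and Camk2g, under 2 FPKM throughout. Within most families 1 paralog held most of the transcript. No member's 3 Chrdl1 libraries lay wholly above or wholly below its 3 vehicle libraries, which 0.577% and 1.87% of all tested transcripts did.

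Dlg4, encoding PSD-95, lies at chr10:56627547-56653601 of rn6 on the plus strand (coordinates as the deposited table gives them). It was at 129, 129 and 115 FPKM in vehicle and at 126, 121 and 108 in Chrdl1 libraries. The pair C library was the lowest of its group in both treatments. Dlg2, encoding PSD-93, was at 42.6, 40.2 and 29.6 FPKM in vehicle and 41.4, 38.6 and 39.7 in Chrdl1 libraries, where the vehicle library of pair C alone stood low. Dlg3, encoding SAP102, ran from 14.7 to 17.2 FPKM. Dlg1, encoding SAP97, lies at chr11:72164566-72378983 on the minus strand; it was at 6.63, 8.05 and 14.9 FPKM in vehicle and 5.82, 7.85 and 18.3 in Chrdl1 libraries, so that both pair C libraries were the high ones. Dlg4 made up 66.0% ± 0.354 (SD, n = 3) of the family's summed FPKM in vehicle and 63.8% ± 3.45 (n = 3) in Chrdl1 libraries. The ranges of Dlg4, Dlg2 and Dlg3 did not overlap one another; that of Dlg1 overlapped Dlg3.

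The Dlgap proteins bind the guanylate kinase domain of PSD-95. Dlgap4 was at 32.5, 32.7 and 28.1 FPKM in vehicle and at 32.6, 31.6 and 26.5 in Chrdl1 libraries. Dlgap3 was at 33.1, 28.5 and 27.4 FPKM and at 35.5, 26.5 and 24.8 FPKM. The ranges of these 2 paralogs overlapped, and they held 42.3% and 40.3% of the family's FPKM over 6 libraries. Dlgap1 ran from 10.05 to 13.5 FPKM and Dlgap2 from 0.667 to 1.85 FPKM.

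Shank proteins are the scaffolds that bind Dlgap from below. Shank1 was at 23.9, 28.2 and 20.6 FPKM in vehicle and 23.3, 27.2 and 21.1 in Chrdl1 libraries. Shank3, the paralog lost in Phelan-McDermid syndrome, was lower, at 14.2, 13.5 and 12.0 FPKM in vehicle and 14.4, 13.7 and 12.7 in Chrdl1 libraries. Shank2 was at 1.25, 1.23 and 0.643 FPKM in vehicle and 1.41, 1.16 and 1.08 in Chrdl1 libraries, so that the vehicle library of pair C was the low one. The 3 ranges did not overlap, and Shank1 held 62.8% ± 2.57 of the family in vehicle and 61.6% ± 2.79 in Chrdl1 libraries (SD, n = 3 each).

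Homer proteins bind Shank and the group I metabotropic glutamate receptors. Homer3 led, at 11.5, 11.6 and 18.2 FPKM in vehicle and 12.1, 13.8 and 16.2 in Chrdl1 libraries, with pair C high. Homer1 went the other way, at 8.68, 10.6 and 6.63 FPKM and at 9.61, 11.1 and 8.46 FPKM, with pair C low in both groups. Its short activity-induced form was not separated, since the table has 1 transcript per symbol. Homer2 was at 5.07, 3.88 and 3.35 FPKM in vehicle and 5.12, 5.27 and 3.78 in Chrdl1 libraries. Homer3 held 45.6% and 44.5% of the family in the vehicle libraries of pairs A and B and 64.6% in that of pair C, and 45.1%, 45.8% and 57.0% in the Chrdl1 libraries. The lead of Homer3 rests on the division by length: by reads it held 27.0% of the family, and Homer1, a longer transcript, 59.1%.

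Among the CaM kinase II subunits, delta was the highest and alpha, the subunit that leads in forebrain, was low. Camk2d, at chr2:230901126-231130336 on the plus strand, was at 146, 134 and 100.2 FPKM in vehicle and 148, 132 and 109 in Chrdl1 libraries, with pair C low. Camk2b was at 62.2, 56.8 and 64.4 FPKM in vehicle and 60.7, 58.4 and 57.3 in Chrdl1 libraries, an even level in which the largest value was 1.13 times the smallest. Camk2a was at 5.64, 3.60 and 3.87 FPKM in vehicle and 4.49, 3.86 and 5.65 in Chrdl1 libraries. Camk2g ran from 0.427 to 0.924 FPKM, on 16 to 36 reads per library. Camk2d held 66.0%, Camk2b 31.3%, Camk2a 2.35% and Camk2g 0.356% of the family's FPKM over 6 libraries, and none of the 4 ranges overlapped.

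Iqsec proteins are exchange factors for ARF GTPases. Iqsec3, which is known from inhibitory synapses and binds gephyrin, was at 120.1, 128 and 98.0 FPKM in the vehicle libraries and at 119, 128 and 97.0 in the Chrdl1 libraries, nearly the same in the libraries of a pair. Iqsec2, the X-linked paralog of excitatory synapses, ran from 6.10 to 7.94 FPKM. Of the summed FPKM of the 2 measured paralogs, Iqsec3 held 94.4%. Lin7 proteins are small PDZ adaptors that pair with CASK. Lin7c led at 51.1, 57.8 and 38.2 FPKM in vehicle and 50.1, 53.2 and 48.6 in Chrdl1 libraries, Lin7b averaged 11.3 FPKM over the 6 libraries, and Lin7a was at 3.26, 3.49 and 6.94 FPKM in vehicle and 2.63, 2.89 and 8.32 in Chrdl1 libraries. Both pair C values of Lin7a were above all others, as for Dlg1.

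Of the members without a listed paralog, Begain, a partner of PSD-95, was the highest, at 48.8, 60.6 and 58.7 FPKM in vehicle and 47.0, 71.5 and 53.0 in Chrdl1 libraries. Tnik, a kinase of the postsynaptic density, was at 28.2, 27.3 and 18.4 FPKM and at 29.1, 28.5 and 22.2 FPKM. Agap2 (PIKE), a GTPase-activating protein, ran from 19.4 to 22.2 FPKM. Cnksr2, a scaffold that binds PSD-95 and Shank, was at 7.81, 10.7 and 5.01 FPKM in vehicle and 7.98, 11.1 and 7.57 in Chrdl1 libraries. Tnik and Cnksr2 were lowest in the vehicle library of pair C. Sipa1l1 (SPAR), a Rap GTPase-activating protein of spines, ran from 6.70 to 8.46 FPKM, Kalrn, the exchange factor kalirin, from 2.78 to 5.15 FPKM, and Baiap2 (IRSp53), which links Rac to actin, from 2.26 to 3.62 FPKM.

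**Figure D2:**
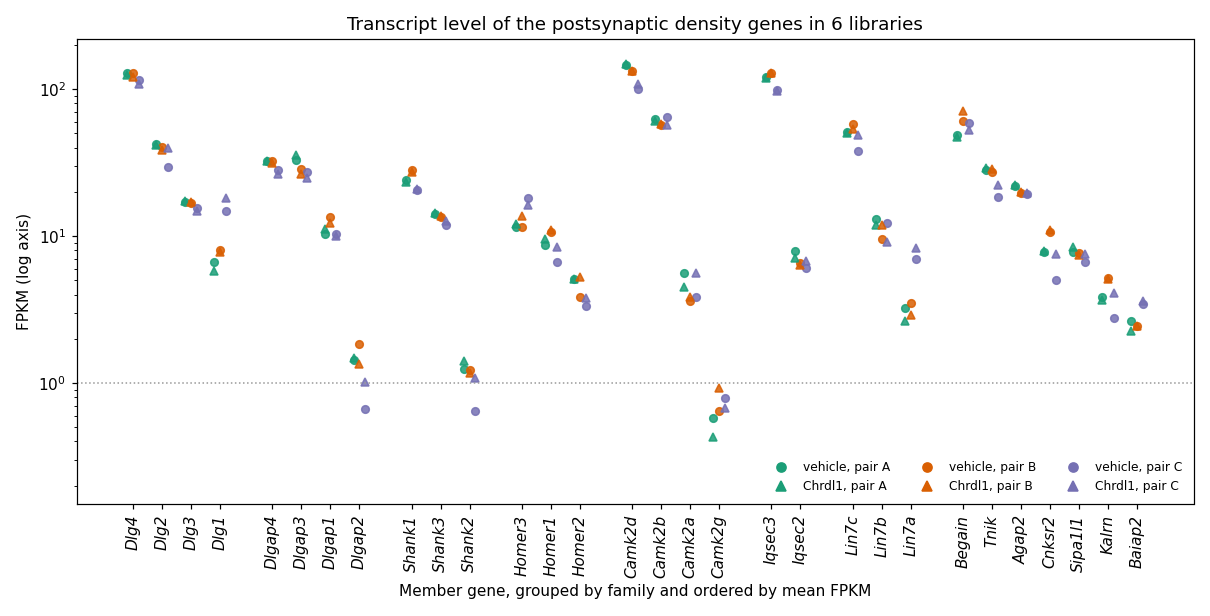
FPKM (vertical log axis) of the 30 members found, grouped by family (horizontal axis); circles are vehicle and triangles Chrdl1 libraries, colours mark the pairs, and the dotted line is the filter at 1 FPKM. Camk2d, Dlg4 and Iqsec3 are highest, and circles and triangles of 1 colour mostly lie closer together than the colours do.

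**Figure D3:**
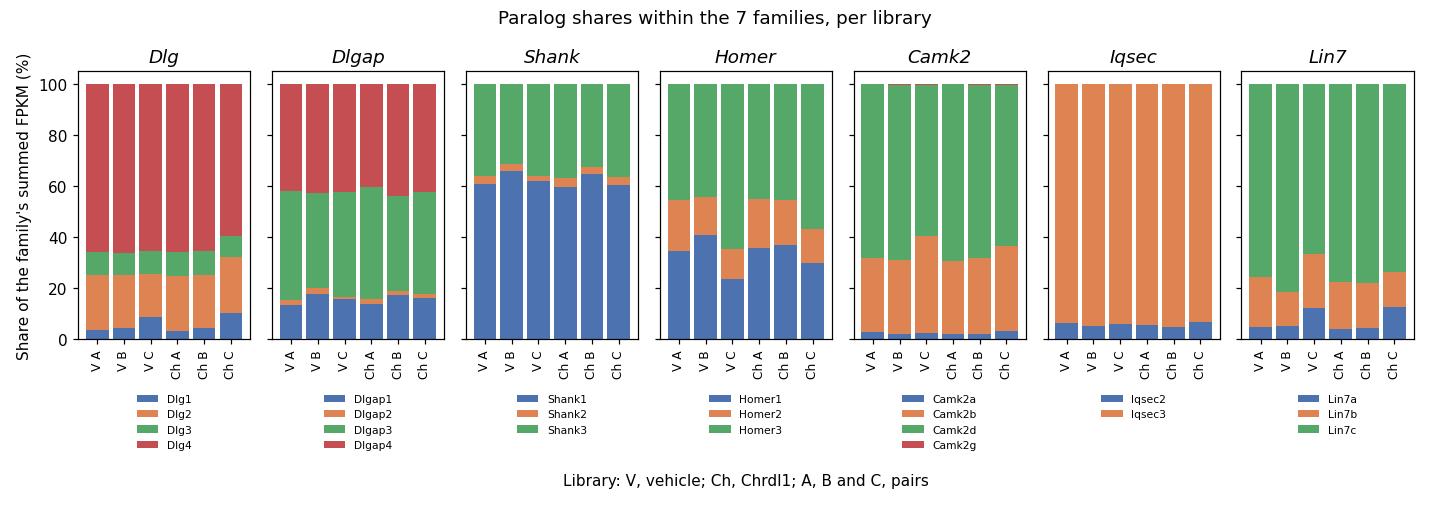
Share of each family's summed FPKM (vertical axis, %) held by its measured paralogs, stacked, in each of 6 libraries (horizontal axis). The order of the leading paralog is kept across libraries in Dlg, Shank, Homer, Camk2, Iqsec and Lin7, while Dlgap3 and Dlgap4 are close, and Homer3 takes 57.0% to 64.6% in pair C.

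Whether 12 h with Chrdl1 alters these transcripts is the question of the treatment comparison. No member passed the threshold, a Benjamini-Hochberg adjusted p under 0.05 over the 10390 transcripts tested with limma on log2(FPKM + 1). Of the 29 tested members 0 were called, against 0% of all tested transcripts, with 0 members at an unadjusted p under 0.05 and a smallest adjusted p of 0.9998. Across all transcripts 18, 0.173%, were at an unadjusted p under 0.05. With the title code as a replicate block 0 members were called either, with a smallest adjusted p of 0.872 and 0 members at an unadjusted p under 0.05, against 5.15% of all transcripts. Limma voom on recovered reads called 0 members too, with 0 at an unadjusted p under 0.05 without the block and 2, Homer1 and Cnksr2, with it. Those 2 are 6.90% of the members, near the 6.06% of all transcripts in the same fit.

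Fold changes were small. The 29 members had a median log2 fold change (Chrdl1 minus vehicle, on the log2(FPKM + 1) scale, which understates the change of low genes) of 0.017, with a range from -0.073 for Lin7b to 0.20 for Cnksr2; the median of all tested transcripts was -0.028. There were 17 positive and 12 negative values. The 95% interval of a member reached 0.38 to either side in the median, and 0.19 once the block was fitted. Intervals of this width leave room for changes of that size in a single member.

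The leading paralogs of the families by mean FPKM were near 0. Dlg4 averaged 124 ± 8.14 FPKM without and 118 ± 8.89 with Chrdl1 (SD, n = 3 each). Its log2 fold change was -0.068 ± 0.10 (SE; 95% interval -0.31 to 0.17). Camk2d averaged 127 ± 23.7 and 129.8 ± 20.1 FPKM, and its log2 fold change was 0.041 (-0.38 to 0.46). With the block, which removes the difference between codes, that interval ran from -0.094 to 0.18. Iqsec3 was at 115 ± 15.6 and 115 ± 16.2 FPKM and -0.0064 (-0.36 to 0.34). Lin7c was at 0.066 (-0.30 to 0.43), Homer3 at 0.045 (-0.43 to 0.52), Shank1 at -0.019 (-0.36 to 0.33) and Dlgap4 at -0.042 (-0.31 to 0.23). The adjusted p of each was 0.9998 in the fit without the block, which counts the differences between codes as spread. With the block their limma adjusted p ran from 0.8865 (Dlg4) to 0.994 (Iqsec3).

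The 5 members with the smallest unadjusted p under the block all had a positive log2 fold change. Homer1 averaged 8.65 ± 1.997 FPKM without and 9.71 ± 1.31 with Chrdl1 (SD, n = 3 each), and its log2 fold change was 0.17 ± 0.18 (SE). Under the block its interval ran from -0.032 to 0.36 and its limma adjusted p was 0.872. Homer2 was at 4.10 ± 0.879 and 4.72 ± 0.818 FPKM and 0.17 ± 0.19, with differences of 0.012, 0.36 and 0.14 in pairs A, B and C. Cnksr2 was at 0.20 ± 0.26, but pair C carried it, with 0.028, 0.047 and 0.51 in the 3 pairs. Tnik was at 0.12 ± 0.19, with 0.045, 0.064 and 0.26, and Dlg2 at 0.10 ± 0.14, with -0.040, -0.059 and 0.41. Without the vehicle library of pair C, when 2 vehicle libraries face 3 with Chrdl1, Cnksr2 came to -0.056, Tnik to -0.066, Dlg2 to -0.053, Homer1 to 0.0069 and Homer2 to 0.062. The vehicle library of pair C was the lowest of the 6 for each of these 5 members.

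In all 3 pairs, 6 members were higher with Chrdl1 (Shank3, Homer1, Homer2, Cnksr2, Tnik and Agap2), against 7.55% of all tested transcripts. One member, Dlg4, was lower in all 3, against 19.5%. In percent the members were at 20.7% and 3.45%. The counts depended on the scaling. They were 8 and 0 with quantile normalization (12.1% and 13.1% of all transcripts) and 7 and 1 with median centring (10.0% and 15.7%). Division by the summed RGC markers, chosen after the data were seen, gave counts of 7 and 0 (12.8% and 10.8%). With the length trend removed they were 4 and 2, and the 13.8% of members then higher in all 3 pairs was near the 11.6% of all transcripts. Homer1, Homer2, Cnksr2 and Tnik were higher in all 3 pairs under each of these, and none of the 4 was called.

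Pair C differed from the others in the treatment contrast as well. The median over members was 0.11 there, 0.0042 for pair A and -0.0064 for pair B. In pair C 19 of 29 members were higher with Chrdl1, against 39.4% of all tested transcripts. In that pair the fold change went with transcript length across the 10390 transcripts (Spearman correlation 0.39, against 0.028 and 0.026 in pairs A and B, a description, since transcripts of a library share its depth and preparation). The members are long, with a median of 3672 bases against 2136 for all tested transcripts. Removing the length trend lowered the pair C median of the members to 0.073, while that of all transcripts went from -0.055 to -0.00091. The count higher with Chrdl1 was then 16 of 29, 55.2%, near the 49.8% of all transcripts. With other scalings the members stayed farther from all transcripts. They were at 72.4% against 47.6% (quantile normalization), 69.0% against 45.5% (median centring) and 89.7% against 69.0% (division by the summed RGC markers). Among the 29 members themselves the Spearman correlation of fold change with length in pair C was 0.047.

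**Figure D4:**
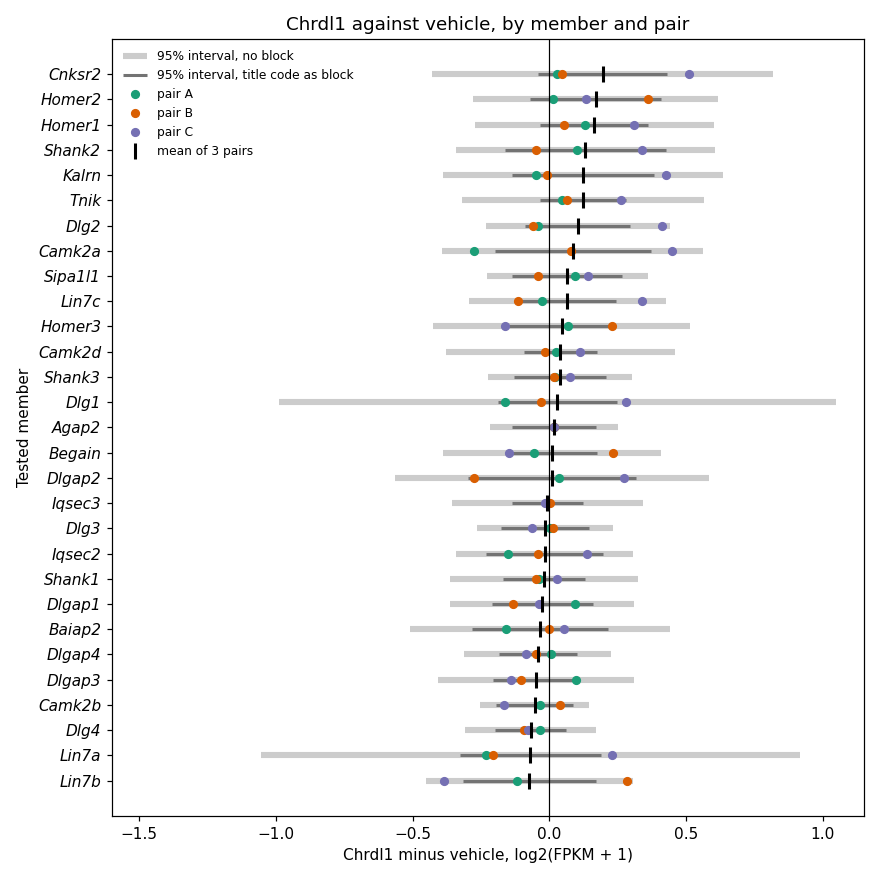
Log2 fold change, Chrdl1 minus vehicle, on the log2(FPKM + 1) scale (horizontal axis) of the 29 tested members (vertical axis); coloured points are pairs A, B and C, the black mark their mean, and the wide and narrow grey bars the 95% intervals without and with the title code as a block. Every interval spans 0, and pair C lies farthest right for members such as Cnksr2, Dlg2 and Kalrn.

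The differences between title codes were larger than those between treatments. Cnksr2, Tnik, Camk2d, Homer1 and Iqsec3 were lower in pair C than in the other pairs, while Dlg1, Lin7a, Homer3 and Baiap2 were higher there. A limma F-test over the 3 codes, with treatment in the model, called 15 of 29 members at an adjusted p under 0.05. Of all tested transcripts it called 47.4%, so that the members' share, 51.7%, was near the background. With other scalings the members' share was farther from it, at 69.0% against 44.7% (quantile normalization), 75.9% against 50.2% (median centring) and 72.4% against 54.5% (voom), but 55.2% against 48.0% with the length trend removed. This test sets the difference between codes against the spread within them.

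Dlg1 had the smallest p among the members, with pair means, in the order A, B and C, of 6.23, 7.95 and 16.6 FPKM (adjusted p = 1.0e-05). Lin7a followed, with 2.95, 3.19 and 7.63 FPKM (adjusted p = 8.2e-05). Camk2d had 147, 133 and 104 FPKM (adjusted p = 0.00065), Tnik 28.7, 27.9 and 20.3 (0.0013) and Iqsec3 119.8, 128 and 97.5 (0.0024). Dlg1 and Lin7a were therefore high in pair C and the other 3 low. Dlg4, with 127, 125 and 112 FPKM, did not pass (adjusted p = 0.093), and neither did Camk2b, with 61.5, 57.6 and 60.8 (0.56).

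Pair C was low for many members. Both of its libraries lay below the other 4 for 16 of 29 members (Dlg3, Dlg4, Dlgap1, Dlgap2, Dlgap4, Shank1, Shank2, Shank3, Homer1, Homer2, Camk2d, Iqsec3, Cnksr2, Lin7c, Tnik and Agap2), against 14.7% of all tested transcripts. Both lay above the other 4 for 4 members (Dlg1, Homer3, Baiap2 and Lin7a), against 23.4%. The median difference of the members on the log2(FPKM + 1) scale was -0.19 from pair A and -0.19 from pair B, where all tested transcripts were at 0.069 and 0.030. No test was made of the list as a whole. With other scalings the count was 18 (quantile normalization, 26.0% of all transcripts), 19 (median centring, 23.6%) and 12 (length trend removed, 18.6%). With any 1 library left out the count was between 16 and 20, against 15.9% to 25.3% of all transcripts. It was 18 and 20 (25.3% and 21.8% of all transcripts) without the vehicle or the Chrdl1 library of pair C. Only the remaining library of that pair then had to lie below.

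Some cell type markers also stood apart in pair C. In pair C, 6 of the 11 RGC markers were below all other libraries and 1 was above, while 4 of 5 bipolar, 5 of 8 photoreceptor and 6 of 8 astrocyte and Müller glia markers were above. Crx was at 44.4 and 45.5 FPKM in pair C and at most 4.88 elsewhere. Levels were also divided by the summed FPKM of the RGC markers, a scaling chosen after the data were seen. Then 6 of 29 members (Dlgap2, Dlgap3, Dlgap4, Camk2d, Iqsec3 and Tnik) were below in pair C, against 5.29% of all transcripts. The summed markers were at 3500, 3040 and 3191 FPKM in vehicle and 3502, 3043 and 2853 in Chrdl1 libraries. This divisor was therefore lowest in the Chrdl1 library of pair C, while the vehicle library of that pair exceeded both pair B libraries. The part of other retinal cells in the differences between codes was not tested.

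**Figure D5:**
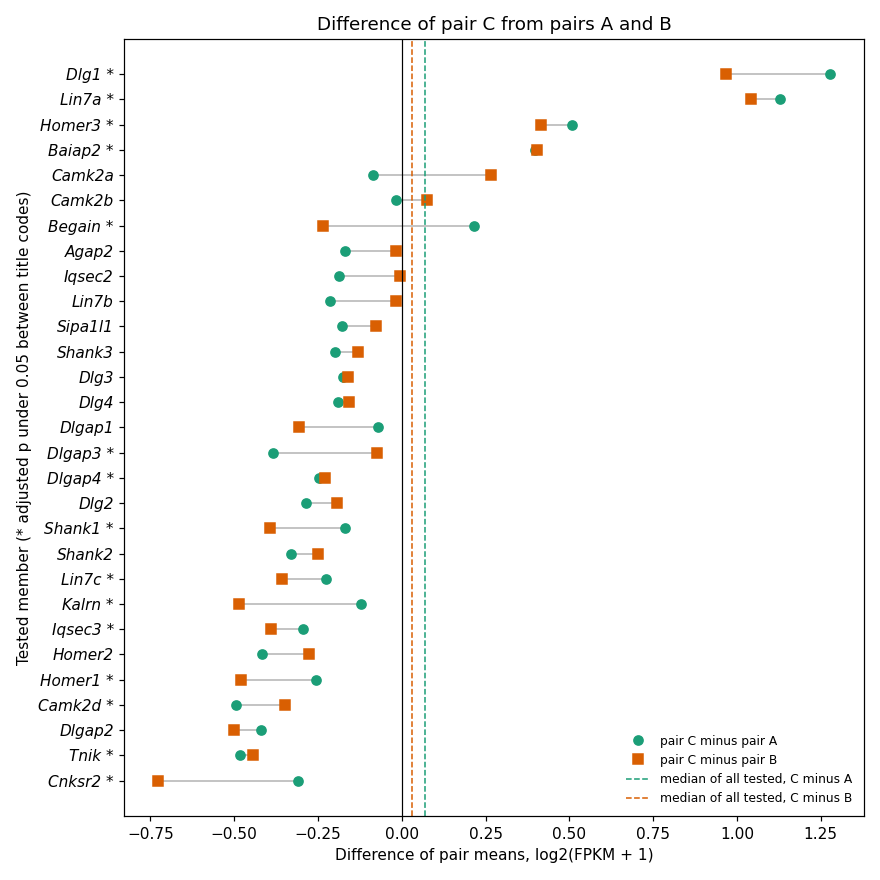
Difference of the pair C mean from the pair A mean (circles) and from the pair B mean (squares) on the log2(FPKM + 1) scale (horizontal axis) for the 29 tested members (vertical axis); dashed lines are the medians of all tested transcripts, and an asterisk marks an adjusted p under 0.05 between codes. Dlg1 and Lin7a lie near 1 on the right, and most other members lie left of 0.

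No other listed gene of the postsynaptic density was called for treatment either. Of 80 listed partners (SynGAP, calmodulin, calcineurin, spinophilin, actin regulators, ankyrins and others), 72 were in the table and 70 were tested. Limma called 0 of them, with 0 at an unadjusted p under 0.05, and 0 and 0 under the block, where 5.15% of all transcripts were at an unadjusted p under 0.05. Their median log2 fold change was -0.00091, with 34 positive and 36 negative. In all 3 pairs 8.57% were higher and 17.1% lower with Chrdl1, near the shares of all transcripts. Among the positive ones was Prkca (0.20 ± 0.27, SE), a protein kinase C gene that is also a bipolar cell marker. The lowest were Pick1, a PDZ protein that binds GluA2 (-0.14 ± 0.11), and the kinase Fyn (-0.11 ± 0.15). Pick1 was at 22.4, 25.3 and 24.3 FPKM in vehicle and at 19.1, 23.5 and 22.6 in Chrdl1 libraries, lower in each pair but with groups that overlap. In pair C, 30 of the 70 lay below all other libraries, 42.9%, against 55.2% of the members and 14.7% of all tested transcripts.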

How the data were processed

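The authors deposited 1 table of FPKM values, normalized to transcript length and library size, with transcript lengths. FastQC, STAR 2.4.0k, HOMER 4.8.3 and the build rn6 are named, per the submitters' processing notes. The annotation release is not given in the sources used here. Per the labels, RNA was made into stranded mRNA libraries. Members were matched by symbol, and 29 of their 30 accessions were found under the same symbol in a GRCr8 RefSeq table.

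Read totals recovered from the steps of the FPKM values were 14546600 for the vehicle library of pair B and 22870500 to 26551800 for the others; 95.6% to 99.3% of values of transcripts up to 3000 bases then came out as whole reads (tolerance 0.0005 FPKM), against 2.52% to 4.56% by chance. Tested members rested on at least 33 reads per library.

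Transcripts with 1 FPKM or more in 3 or more libraries were fitted with limma 3.58.1 (R 4.3.3, lmFit and trended eBayes, two-sided) on log2(FPKM + 1). Shares, depths and figures used Python 3.11.15. Codes were taken to pair the libraries because deviations from group means correlated within codes at 0.82, 0.86 and 0.84. The fits were tested on simulated data. Members, lists and alternatives were chosen with earlier results of these data known. Statistics are printed for the leading paralog of each family, the 5 members of smallest unadjusted p with the block, and the 5 of smallest p between codes. The 2 highest and 2 lowest partner genes were to be named as well; some items are not reported here.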

Additional observations from a re-analysis of the deposited data

How the results depend on the processing

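No alternative called a member between Chrdl1 and vehicle: 0 under other pseudocounts (0.1 and 5), filters, scalings, voom, the length correction, each left-out library, the replicate block (member median 0.017) and the block without 1 pair. Over all transcripts the count rose from 0 to 2 with voom under the block, and to 25 and 34 under the block without pair A or B. The member median ran from -0.053 (without the vehicle library of pair C) to 0.070 on leaving out 1 library. Signs of small fold changes turned. Quantile normalization gave 0.017 for Shank1 and 0.061 for Iqsec3, with and without the block, and median centring 0.0098 for Iqsec3. The block without pair B gave -0.047 for Homer3, and without pair C -0.071 for Lin7c and -0.050 for Dlg2. Leaving out 1 library gave -0.12 to 0.091 for Shank1, -0.060 to 0.25 for Homer3, -0.12 to 0.11 for Iqsec3, -0.12 to 0.16 for Camk2d, -0.10 to 0.19 for Lin7c, -0.056 to 0.42 for Cnksr2, -0.066 to 0.24 for Tnik, -0.053 to 0.20 for Dlg2 and -0.11 to 0.048 for Dlgap4; the codes are then unequal between the groups. Homer1, Homer2 and Dlg4 kept their sign under every alternative run, but leaving out 1 library gave 0.0069 to 0.31 for Homer1, 0.062 to 0.30 for Homer2 (both lowest without the vehicle library of pair C) and -0.12 to -0.0075 for Dlg4 (nearest 0 without the Chrdl1 library of pair C). The cause was not tested.

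Between codes, the count of transcripts ran from 3148 (without the Chrdl1 library of pair A) to 5581 and that of members from 11 to 17 on leaving out 1 library; scalings and voom gave 16 to 22 members. On division by RGC markers the count of members lowest in pair C fell from 16 to 6 of 29. The share of all transcripts fell with it, from 14.7% to 5.29%. Reads in place of FPKM gave Dlgap4 35.5%, Homer3 27.0%, Camk2d 55.7% and Iqsec3 96.2% of their families. By reads Dlgap3, at 37.6%, was above Dlgap4. Depth limits Camk2g and Lin7a most, with 16 and 33 reads in their lowest library.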
